A study of Mus musculus with 16 samples.

Results

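SETD5 is a chromatin protein with a SET domain that works with the NCoR and HDAC3 corepressor in preadipocytes, and ChIP-seq was used to map where it sits on the genome. The regions described here are SETD5-V5 islands that lie at the ends of protein-coding genes. An island is a stretch of the genome in which the reads of a library passed the threshold of the peak caller. A gene-end island was defined as an island of 6 h replicate A that was shorter than 20000 bp, that overlapped an island of 6 h replicate B by at least 1 bp, and whose midpoint lay between 100 bp upstream and 1000 bp downstream of the end of a GENCODE protein-coding transcript. Islands with the midpoint in a promoter, taken as the 1000 bp before and the 100 bp after any transcript start, were not counted. This rule was met by 423 of the 35573 islands of replicate A, or 1.19%, and by 1.94% of the 21752 islands under the length limit that were found in both replicates. The other islands of that set were 1350 with the midpoint in a promoter and 19979 elsewhere, called distal here. The members were thus selected on measured values of the 6 h SETD5-V5 lists, namely presence, position and length, and all values taken from those 2 lists are given as description without a test.

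All libraries came from 3T3-L1 cells, a line of mouse preadipocytes that turns into adipocytes when treated with MDI, a mixture of insulin, dexamethasone and isobutylmethylxanthine. SETD5 carrying a V5 tag was delivered by retrovirus to make a stable line with moderate expression, and the tag was precipitated at 0 h and 6 h of MDI, with 2 libraries (A and B) at each time. The lists of 0 h held 16054 islands in A and 6666 in B, and those of 6 h held 35573 and 27220. The V5 signal is therefore that of an introduced protein, in cells that also carry their own SETD5. Endogenous SETD5 was precipitated with its own antibody at 0 h and 6 h, with 1 library each, which gave 2132 and 3293 islands. H3K27ac, a mark of active promoters and enhancers, was measured in cells with empty vector (EV) or with the SETD5 virus at 0 h and 48 h, with 2 libraries per condition and between 31292 and 39949 islands per list. H3K4me1, found at enhancers whether primed or active, had 1 library at 0 h (50276 islands) and 1 at 48 h (49926 islands). The labels name the SETD5 virus for both H3K4me1 libraries, whereas the figure captions of the study name no virus for H3K4me1. For replicate A of SETD5-V5 the virus field is blank, although the sample names give SETD5-V5. Since read counts are not given per island, the depth behind a single island is unknown, and a region without an island did not pass the threshold in that library. Promoters of all 12 fibroblast and preadipocyte marker genes, among them Pdgfra, Col1a1 and Thy1, had an H3K27ac island in both EV libraries at 0 h, whereas none of 12 promoters of blood, endothelial, epithelial, liver, muscle, neuronal or pluripotent markers had one.

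The end of a protein-coding gene is where the transcript is cut and polyadenylated, usually a short way downstream of the hexamer AATAAA, while RNA polymerase II goes on transcribing for some distance before it is released. Enhancers can also lie just past a gene end, and in a short gene or a gene-dense stretch 1 broad ChIP island can take in the end together with a promoter. SETD5 has been linked in preadipocytes to the PAF1 complex, which travels with elongating polymerase, and to HDAC3, which removes acetyl groups from histones.

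Sequences are shown for 7 ends that the islands covered, to place the islands relative to the cleavage signal. The Wasl end is that of a shorter transcript inside the gene, and the others are outermost ends. Each is the last 30 bases of the transcript, 5′ to 3′ on the strand of the gene in mm9, with the hexamer in capitals.
Rpl12 (chr2:32819987-32820016, + strand): AATAAAattgtatttagagaagcaaaccca
Rpl10a (chr17:28467948-28467977, + strand): tgctccAATAAAcctcactgctgccactca
Rps6 (chr4:86500564-86500593, - strand): aacaAATAAAtaatgaccttgaatctttca
Twist1 (chr12:34644653-34644682, + strand): ttatttttctgcaataAATAAAtatgattg
Lpl (chr8:71430804-71430833, + strand): cAATAAAactgagaacattttatcatgata
Col6a1 (chr10:76171537-76171566, - strand): tatctctgctAATAAAggtttccatttttc
Wasl (chr6:24582685-24582714, - strand): tttttgcaAATAAAattctatgttcactga

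The hexamer began between 14 bases (Twist1) and 30 bases (Rpl12) before the annotated end. AATAAA was found in the last 50 bases of 59.5% of the 306 outermost ends that carried an island and were annotated as complete, and ATTAAA alone in a further 14.4%. At the outermost complete ends of the other 21790 protein-coding genes these shares were 54.8% and 12.2%. Of the 423 islands, 308 (72.8%) lay at the outermost end of the gene. The other 115 lay at the end of a shorter transcript inside the gene, where 17.4% of the ends held AATAAA and 1.74% held ATTAAA alone. Unlike the outermost ends above, these 115 were not limited to complete transcripts, so the shares are not directly comparable. For 54 islands (12.8%) the transcripts in reach were all tagged as incomplete at the 3′ end, so that the end of the annotation need not be the end of the RNA. The Sgk1 island described below was of this kind.

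Motifs were searched on both strands in the 600 bases around each midpoint: TGACTCA of AP-1, TTGCNNAA of C/EBP, GGAATG of TEAD and TGACGTCA, the cAMP response element (CRE). The match nearest to the midpoint is shown, as examples, for AP-1 in 5 members and C/EBP in 2, on the strand that reads the motif, with the motif in capitals.
Jund, AP-1 (chr8:73225058-73225087, - strand): aaagatgctatgTGACTCAagacaattgct
Loxl2, AP-1 (chr14:70090356-70090385, - strand): agaaccaactccTGACTCAaagtctaaatc
Prrx1, AP-1 (chr1:165182648-165182677, + strand): cttccatctgcTGACTCAtcaagtctgcag
Wasl, AP-1 (chr6:24582274-24582303, + strand): aagcagaccaaTGACTCActgcaatcaaca
Pde4b, AP-1 (chr4:102277153-102277182, + strand): ccttcagagaaTGACTCAcagaatccatgt
Prrx1, C/EBP (chr1:165182587-165182616, + strand): aagaagctgcaTTGCCAAAcaaagcatatg
Fndc3b, C/EBP (chr3:27393344-27393373, - strand): aaattggatctTTGCTTAAcaacagaagaa

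The islands were broad. Their median length was 6800 bp (quartiles 3800 to 10500 bp), against 4400 bp for distal and 4800 bp for promoter islands, and the shortest was 600 bp long. The midpoint lay a median of 415 bp downstream of the end, and 90.8% of the midpoints were downstream, both of which the position window largely sets. The island extended a median of 2982 bp upstream and 3936 bp downstream of the transcript end. The midpoint fell outside protein-coding genes in 227 islands (53.7%), in an intron in 89, in a 3′ UTR in 69, in coding sequence in 35 and in a 5′ UTR in 3. The genes were of ordinary length, with a median of 15.2 kb against 15.1 kb for all protein-coding genes. Even so, 178 islands (42.1%) overlapped a promoter of the gene at whose end they lay, and 123 (29.1%) covered the start of that gene. Another gene's promoter was overlapped by 135 islands, while 201 (47.5%) overlapped no promoter at all, against 81.2% of the distal islands. At the length limit, the longest members were the islands of Hdgf and Pik3r2 with 19800 bp each and of Rps15a with 19600 bp. The shortest islands left out were those of Vcan, Eef1d and Clec2d with 20000 bp each, and 45 islands at gene ends were left out for their length. At the edges of the position window, 41 midpoints lay 900 to 1000 bp downstream and 39 lay up to 100 bp upstream of the end.

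**Figure D1:**
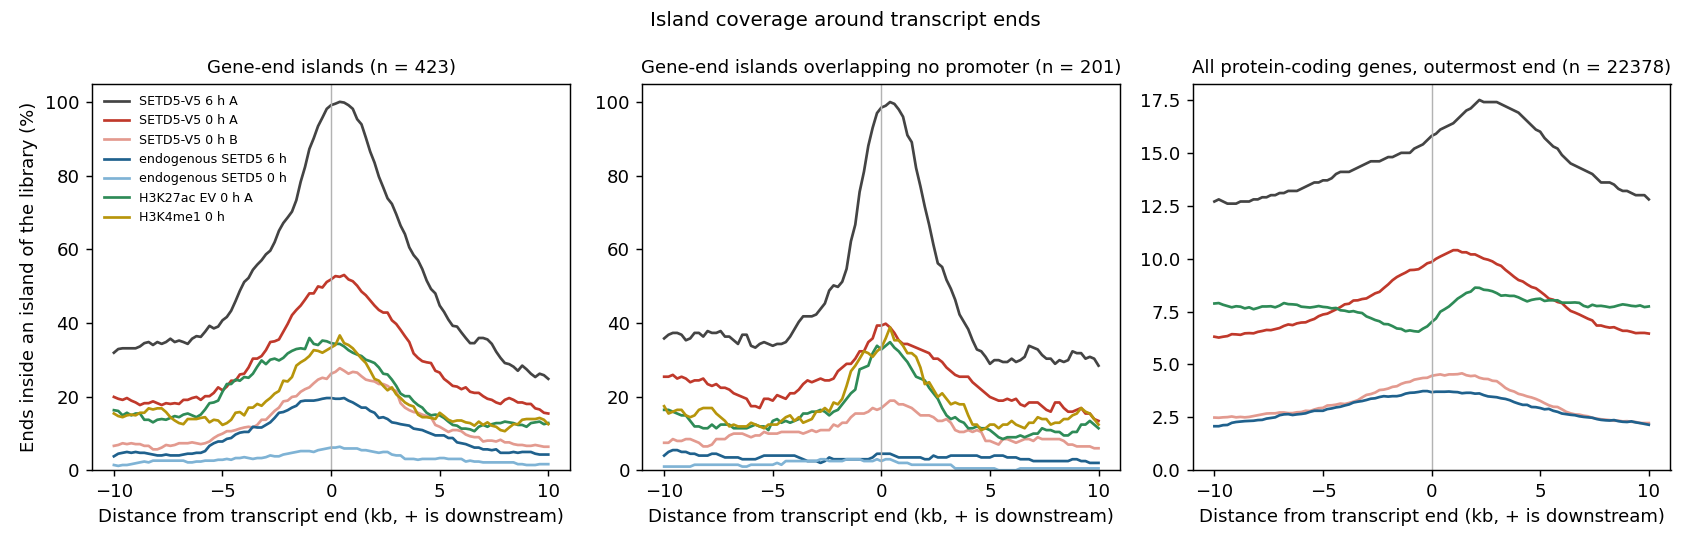
Percent of transcript ends (y axis) that lay inside an island of each library, by distance from the end in kb along the strand of the gene (x axis), for the 423 gene-end islands, for the 201 of them that overlapped no promoter, and for the outermost ends of all 22378 protein-coding genes (the y axis of this panel stops below 20%). The 6 h SETD5-V5 line in the first 2 panels follows from how the islands were chosen. At the end itself, endogenous SETD5 at 6 h covered 19.6% of all members and 4.48% of those without a promoter, and SETD5-V5 at 0 h in A covered 51.8% and 39.3%.

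The first question is whether SETD5 was found at these ends in lists that had no part in choosing them. It was, and more often than at distal islands in each of the 4 lists. The gene-end islands also had higher scores in the 6 h list of A. For the median gene-end island 20.8% of that list scored higher, against 35.6% for distal and 30.7% for promoter islands. Shares at equal score were not compared. SETD5-V5 at 0 h overlapped 268 of the 423 gene-end islands in replicate A (63.4%), where 39.6% of all reproducible 6 h islands were overlapped and 38.3% of the distal ones. In replicate B it overlapped 145 (34.3%), against 16.8% of all and 16.4% of the distal islands. Of the promoter islands, 51.9% were overlapped in A and 17% in B. The list of B was the shorter one (6666 against 16054 islands), and the gap between gene-end and distal islands was 25.1 percentage points in A and 17.9 in B, a mean of 21.5. Both 0 h lists had an island at 137 members (32.4%, against 14.6% of the distal and 15.3% of the promoter islands). At 147 members neither had one (34.8%, against 59.9% of the distal and 46.4% of the promoter islands). Endogenous SETD5 at 6 h overlapped 96 members, or 22.7% (95% Wilson interval 19.0 to 26.9%), where 7.63% of all reproducible islands, 6.90% of the distal and 13.8% of the promoter ones were overlapped. At 0 h it overlapped 42 members, or 9.93% (7.43 to 13.1%), against 4.27% of all, 4.11% of the distal and 4.89% of the promoter islands. Of the members with endogenous SETD5 at 6 h, 63 had none at 0 h (14.9% of the members, against 3.91% of the distal and 10.1% of the promoter islands). An island at 0 h only was seen at 9 members (2.13%, against 1.12% of the distal and 1.26% of the promoter islands). The intervals cover counting error over islands, which are not replicates, and with 1 library per time for endogenous SETD5 the difference between times has no replicate check.

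Most of the members with endogenous SETD5 also took in a promoter. Of the 178 members that overlapped the promoter of their own gene, 75 (42.1%, interval 35.1 to 49.5%) had an endogenous SETD5 island at 6 h, and 67 of them (37.6%) had it at the island's midpoint, which is at the gene end. Of the 201 members without a promoter, 13 (6.47%, 3.82 to 10.7%) had one, against 4.73% of the distal islands without a promoter. At 0 h endogenous SETD5 overlapped 18.5% of the members with their own promoter and 4.48% (2.37 to 8.29%) of those without a promoter, against 3.58% of the distal islands without one. At 6 h the differences from distal islands were 15.8 percentage points over all members and 1.73 over those without a promoter. For SETD5-V5 at 0 h, the members with their own promoter were overlapped at 77.0% in A and 48.9% in B and those without a promoter at 48.8% and 23.4%. Distal islands without a promoter were overlapped at 33.2% and 14.6%, so that here a mean difference of 12.2 percentage points was left. Longer islands are more easily overlapped. Among islands of 8000 bp or more, endogenous SETD5 at 6 h overlapped 39.2% of the 186 gene-end islands. Promoter islands of that length were close to this, at 35.2% of 310 (30.1 to 40.6%), and distal ones stood at 15.1% of 3978. Under 4000 bp the shares were 6.42% of 109 gene-end (3.15 to 12.7%), 4.89% of 470 promoter and 4.95% of 8488 distal islands. When the distal islands were weighted to the lengths of the gene-end islands, the differences were 13.4 percentage points for endogenous SETD5 at 6 h and 13.7 for SETD5-V5 at 0 h.

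**Figure D2:**
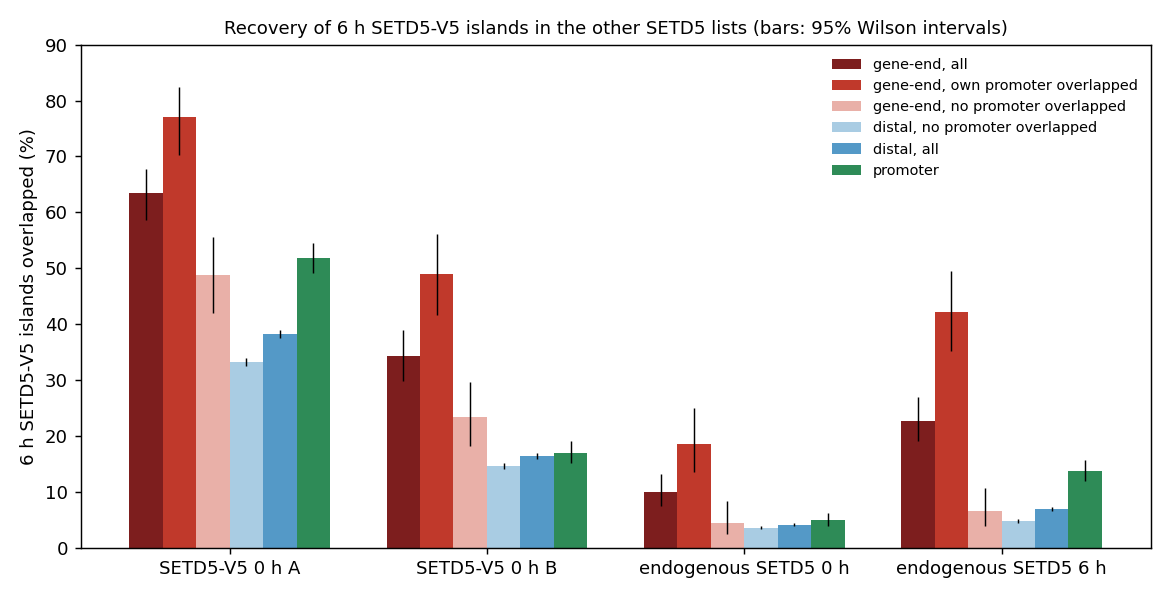
Percent of 6 h SETD5-V5 islands (y axis) overlapped by an island of each other SETD5 library (x axis), with 95% Wilson intervals. Gene-end islands that overlapped the promoter of their own gene stood highest in all 4 libraries, and for endogenous SETD5 at 6 h those without a promoter (6.47%) lay close to distal islands without one (4.73%).

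The density of islands around gene ends can be compared without the choice of members. Each island was counted where its midpoint lay, so islands that also reached into a promoter were included. Densities without such islands were not computed. Per Mb of the gene-end zone of all protein-coding genes, endogenous SETD5 had 5.20 islands under 20000 bp at 6 h, which was 2.92 times its density in the rest of those genes, promoters left out, and 8.28 times its density between genes. At 0 h it had 2.09 islands per Mb, or 2.27 and 3.41 times those densities. SETD5-V5 at 0 h had 15.4 islands per Mb in A and 7.43 in B, 1.61 and 1.93 times its density in the rest of the genes. At 6 h SETD5-V5 had 19.8 and 15.2 islands per Mb, and the ratios to the rest of the genes were 1.07 and 1.06. For H3K27ac this ratio was between 0.752 and 0.890 over the 8 libraries, and for H3K4me1 it was 0.873 at 0 h and 0.973 at 48 h. Gene ends were thus denser in islands than the rest of the genes in the endogenous SETD5 and the 0 h SETD5-V5 lists, about as dense in the 6 h SETD5-V5 lists and the H3K4me1 list of 48 h, and less dense in the 8 H3K27ac lists and the H3K4me1 list of 0 h. Promoters were denser still in 3 of the 4 former lists, with 5.42 islands per Mb for endogenous SETD5 at 6 h, 2.45 at 0 h and 22.7 for SETD5-V5 at 0 h in A, and less dense in B (5.61). Over the outermost ends of all 22378 genes, SETD5-V5 at 0 h in A covered 9.84% at the end itself and 6.31% at 10000 bp upstream. H3K27ac in EV replicate A at 0 h covered 6.61% at 1000 bp upstream and 8.63% at 2000 bp downstream. These are descriptions of single libraries.

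The second question is whether the members carried active histone marks. As whole regions they did so slightly more often than distal islands. At 0 h an H3K27ac island overlapped 64.8% of the gene-end islands in EV replicate A and 63.1% in B, where 61.0% and 60.5% of all reproducible islands were overlapped. At 48 h the EV values were 66.0% and 64.8%, against 61.2% and 62.9% of all. In SETD5 cells they were 66.4% and 65.2% at 0 h, against 64.8% and 63.5% of all, and 70.0% and 69.5% at 48 h, against 69.3% and 70.6% of all. Compared with the distal islands alone, the share was higher at gene ends in 8 of 8 libraries, by a mean of 3.69 percentage points (66.2% ± 2.38 against 62.5% ± 4.03, SD, n = 8, two-sided exact permutation test by sign flips over libraries, p = 0.00781, the smallest it can give, and 0.0391 with Benjamini-Hochberg adjustment over 5 tests). All 8 libraries had an island at 231 members (54.6%, against 42.2% of the distal islands), and 91 members (21.5%, against 18.1%) had no H3K27ac in any.

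The difference was 11.5 percentage points with H3K27ac islands above the median score of their list and 7.84 at outermost ends. It was 5.11 with equal numbers of islands per list and 3.48 for complete transcripts. Against distal islands inside genes, a setting chosen after the data were seen, it was 3.61 (exact permutation test, p = 0.0156). In that setting SETD5 replicate B at 48 h stood at -0.273. The difference turned round at midpoints, with 50% of the island covered (-8.00), and once the length of the islands or the promoters within them were taken into account. At the midpoint of the island, which at members is the gene end, H3K27ac was found at 32.5% ± 1.84 (SD, n = 2) of the gene-end and 43.7% ± 2.51 of the distal islands in EV cells at 0 h. Over the 8 libraries the difference at midpoints was -10.4 percentage points, lower at gene ends in 8 of 8 (exact permutation test, p = 0.00781). It was -12.3 among islands that overlapped no promoter and -3.18 with the distal islands weighted to the gene-end lengths, settings chosen after the data were seen. Members with and without a promoter differed in where the mark lay. Of the 178 members with their own promoter, 144 (80.9%) overlapped H3K27ac in all 8 libraries and 24 (13.5%) had it at the midpoint in all 8. For promoter islands these shares were 81.1% and 61.3%, so that by overlap these members were close to promoter islands. Of the 201 members without a promoter, 53 (26.4%) overlapped H3K27ac in all 8 libraries, 40 (19.9%) had it at the midpoint in all 8, and 72 (35.8%) overlapped it in none. Of the distal islands without a promoter, 33.8% overlapped it in all 8 libraries, 21.1% had it at the midpoint in all 8 and 20.7% overlapped it in none. Among those 201, H3K27ac in EV replicate A at 0 h covered 32.8% of the ends and 16.4% of the positions 2000 bp upstream.

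**Figure D3:**
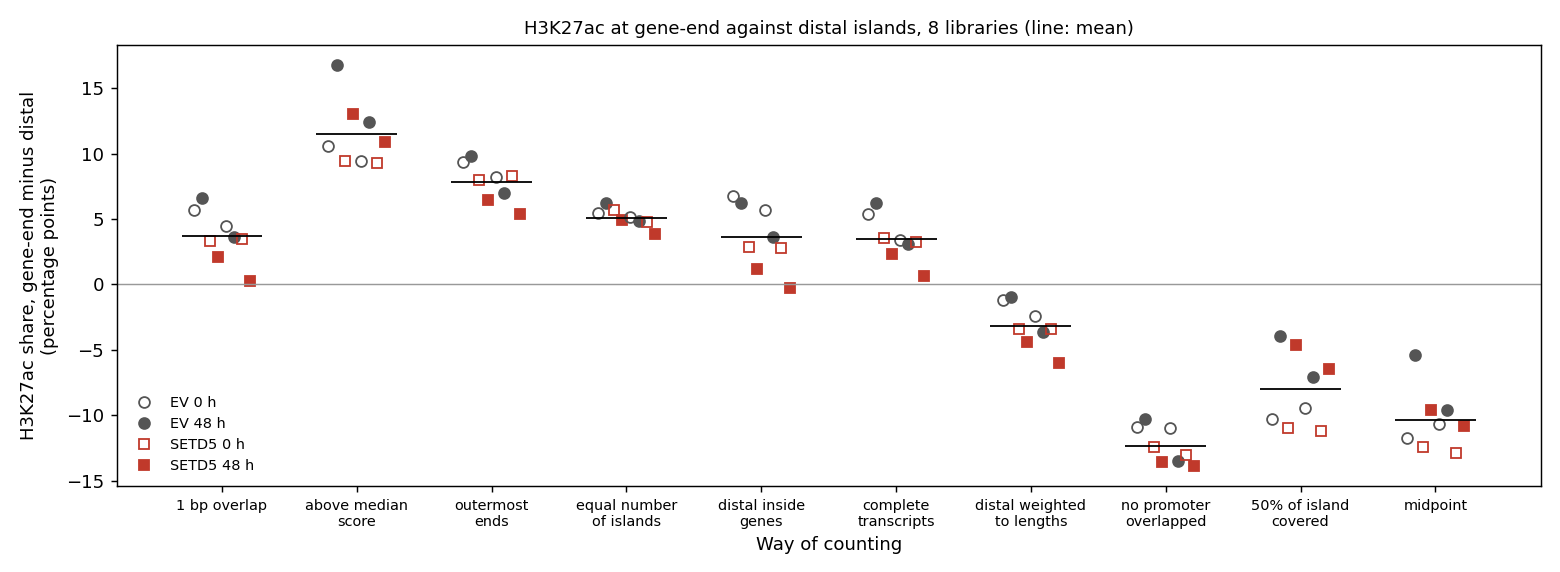
Share of gene-end islands with H3K27ac minus the share of distal islands, in percentage points (y axis), in each of the 8 H3K27ac libraries (points, with the mean as a line) under 10 ways of counting (x axis). The mean was above 0 for 6 ways, from 3.48 to 11.5, and below 0 for 4, down to -12.3 for islands that overlapped no promoter.

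H3K4me1 overlapped 61.5% of the members at 0 h (interval 56.7 to 66.0%), against 64.7% of all reproducible and 64.8% of the distal islands. At 48 h it overlapped 64.1% (59.4 to 68.5%), against 64.4% of all and 64.5% of the distal islands. At the midpoint it was found at 35.2% of the gene-end and 42.6% of the distal islands at 0 h, and at 40.4% and 43.0% at 48 h. Neither H3K4me1 nor EV H3K27ac was present at 0 h over 103 members (24.3%, against 23.3% of the distal islands), and at the midpoint neither was present at 225 (53.2%, against 39%). Of the members without a promoter, 83 of 201 (41.3%) overlapped neither, against 27% of the distal islands without a promoter.

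The H3K27ac libraries also allow the effect of the vector and of time to be compared. The mean share of gene-end islands with H3K27ac was 67.8% ± 2.31 in SETD5 and 64.7% ± 1.17 in EV cells (SD, n = 4 libraries each), a difference of 3.13 percentage points (exact permutation test within time, p = 0.0556, the smallest it can give, adjusted p = 0.0926). At distal islands the means were 65.5% and 59.6%, and the vector difference at gene ends minus that at distal islands was -2.82 percentage points (exact permutation test, p = 0.0556, adjusted p = 0.0926). The SETD5 lists were longer than the EV lists, and with equal numbers of islands per list these values were 0.296 (p = 0.778, the same exact test) and -0.603 (p = 0.333). Between times the share was 67.6% ± 2.58 at 48 h and 64.9% ± 1.37 at 0 h (SD, n = 4), a difference of 2.66 percentage points (exact permutation test within vector, p = 0.111, adjusted p = 0.139). The time difference at gene ends minus that at distal islands was -1.07 percentage points (exact permutation test, p = 0.333, adjusted p = 0.333), and it turned round at midpoints (3.10). None of these 4 tests passed 0.05, which permuting 8 libraries within time or vector cannot reach.

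At the midpoint the time difference at gene ends was larger. The 4 libraries of 0 h lay between 31.2% and 33.8% and the 4 libraries of 48 h between 35.9% and 41.4%, with no overlap (mean difference 6.80 percentage points, exact permutation test, p = 0.0556). At midpoints of distal islands the mean share rose too, from 43.7% to 46.0% in EV and from 45.5% to 50.6% in SETD5 cells. Among gene-end islands under 4000 bp it fell from 36.2% to 28.9% in EV cells and rose from 36.7% to 41.7% in SETD5 cells. Among members with their own promoter the midpoint share was 26.7% ± 4.37 at 0 h and 40.2% ± 9.93 at 48 h in EV cells (SD, n = 2), and 27.5% ± 1.59 and 40.4% ± 0.795 in SETD5 cells. Among members without a promoter it was 34.3% ± 0.704 and 34.8% ± 2.11 in EV cells and 34.3% ± 0 and 39.8% ± 2.11 in SETD5 cells. Distal islands without a promoter moved similarly, from 42.0% to 43.3% in EV and from 43.8% to 48.9% in SETD5 cells. Promoter islands stood at 74.6% and 76.7% in EV and at 76.3% and 76.8% in SETD5 cells. The difference between members with and without a promoter was not tested.

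Most of the genes with such an end had H3K27ac at a promoter, which was compared with all genes without a test. The ends of 449 protein-coding genes were in reach of an island, or 2.01% of 22378, and 27 islands reached the ends of 2 genes. In both EV libraries at 0 h, 78.4% of these genes had a promoter H3K27ac island, against 45.2% of all protein-coding genes, and at 48 h 80.4% against 46.4%. Where the gene-end island overlapped no promoter, the promoter of the gene, which lies outside that island, still had H3K27ac at 72.1% (147 of 204 genes) at 0 h. A promoter island of SETD5-V5 in both 6 h lists was found at 59.3% of these 204 genes, against 20.7% of all, and one of endogenous SETD5 at 6 h at 12.7%, against 6.11%. In these genes the island at the end, as drawn in replicate A, did not reach the promoter.

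By function, the gene lists gave the following counts, where the share over all genes was 2.01%. Of the 10118 genes with promoter H3K27ac in both EV libraries at 0 h, 352 had a gene-end island. Of the 4631 with promoter SETD5-V5 in both 6 h lists, 291 had one. In each list but the markers of other cell types, most genes had this promoter H3K27ac, as did 18 of the 21 glucocorticoid and cAMP responsive genes. All genes are thus a low base for these lists, and the counts were not tested. Of 21 glucocorticoid and cAMP responsive genes, which the MDI mixture acts on, 5 had a gene-end island. These were Tsc22d3, Sgk1, Cited2, Pde4b and Pde4d (the last at a short gene model annotated under that symbol). Of 24 extracellular matrix genes, 4 had one (Col1a2, Col6a1, Col6a3 and Loxl2), and of 20 AP-1 and immediate early genes, 2 (Jun and Jund). Of 20 cytosolic ribosomal protein genes, 3 had one (Rpl10, Rps6 and Rps9). Taking all 83 genes with a ribosomal protein symbol, a list made after the members were seen, 21 had one (25.3%), among them Rpl10a, Rpl11, Rpl12, Rps13, Rps14 and Rps15a. There was 1 each among 14 early adipogenic transcription factors (Nr3c1, the glucocorticoid receptor), 19 later adipogenic genes (Lpl), 14 TEAD and YAP genes (Tead3) and 19 actin cytoskeleton genes (Actb). The ends of Tead3 and Rpl10a were in reach of the same island, which overlapped a promoter of Rpl10a. None was found among 17 genes of SETD5, NCoR-HDAC3 and the PAF1 complex or the 12 markers of other cell types, and 3 among the 12 fibroblast markers (Col1a2, Twist1 and Prrx1). Of 67 genes with a histone symbol, also listed afterwards, 5 had one.

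**Figure D4:**
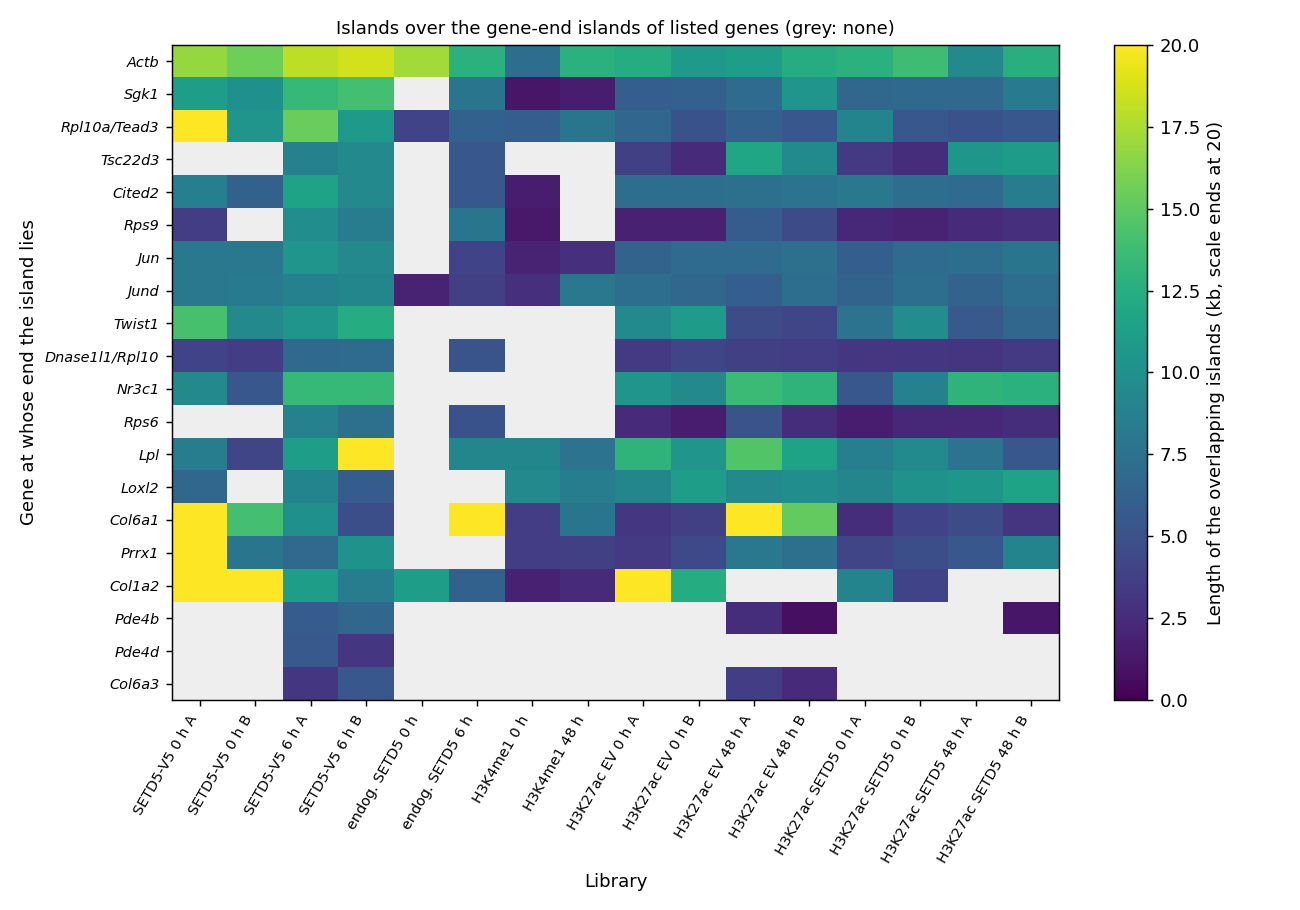
Summed length in kb (colour, up to 20) of the islands of each of the 16 libraries (columns) that overlapped the 20 gene-end islands of listed genes (rows, in order of score), with grey where there was none. Actb and Jund had an island in all 16 libraries, while the Pde4d island was listed in the 6 h SETD5-V5 libraries only, and Col1a2 had H3K27ac at 0 h and none at 48 h.

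The islands of Sgk1, Tsc22d3, Cited2, Jun and Actb lay at the end of a shorter transcript inside the gene, and all 5 overlapped a promoter of the same gene. The lengths given below are those of all islands of a library that overlapped the member, wherever in it they lay. Among the signal-responsive genes, Sgk1 (a glucocorticoid-induced kinase) had the highest score. Its island (chr10:21709801-21723200) was 13400 bp long at 6 h in A and 14000 bp in B, and 11200 and 10000 bp at 0 h. Endogenous SETD5 had no island there at 0 h and 7800 bp at 6 h. H3K27ac measured between 6000 and 10400 bp in the 8 libraries. At Tsc22d3, which encodes the glucocorticoid-induced leucine zipper, neither 0 h SETD5-V5 list had an island, and the 6 h islands were 8800 bp and 9400 bp long (chrX:137069801-137078600). Endogenous SETD5 was again listed at 6 h only, with 5400 bp. H3K27ac islands overlapping the Tsc22d3 island, which also takes in a promoter of the gene, were 3800 and 2400 bp long in EV cells at 0 h and 11800 and 9600 bp at 48 h, and 3400 and 2600 bp and then 10600 and 11000 bp in SETD5 cells. The 4 lengths of 48 h were all above the 4 of 0 h, with either vector. Cited2, a coactivator partner of p300, had SETD5-V5 islands of 8600 and 6200 bp at 0 h and of 11600 and 9400 bp at 6 h. Jun and Jund, subunits of AP-1, had SETD5-V5 at both times, with 8000 bp in both 0 h lists and 10400 and 9400 bp at 6 h for Jun (chr4:94711801-94722200). Endogenous SETD5 at 6 h measured 4000 bp at Jun and 3800 bp at Jund. The genes annotated as the phosphodiesterases Pde4b and Pde4d, which break down cAMP, had SETD5-V5 at 6 h and in neither list of 0 h. The Pde4d island, with 5600 and 3200 bp, lay over a short gene model annotated under that symbol and was 1 of 29 members (6.86%, against 8.10% of the distal islands) with no island in any of the other 14 libraries.

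At Actb, the gene of β-actin, the island (chr5:143656001-143674000) was 18000 bp long at 6 h in A and 18600 bp in B, with 16800 and 15600 bp at 0 h. It overlapped endogenous SETD5 of 17200 bp at 0 h and 12800 bp at 6 h, and H3K27ac of 9400 to 13800 bp. Among the ribosomal protein genes, Rpl12 had islands of 15800 and 11600 bp at 6 h and of 10400 and 5800 bp at 0 h, and endogenous SETD5 of 1600 bp at 0 h and 10000 bp at 6 h. Rps6 had SETD5-V5 of 8800 and 7400 bp at 6 h and none at 0 h, and endogenous SETD5 of 5000 bp at 6 h only. These islands extended over the whole of these short genes.

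The islands of Lpl, Col6a1 and Col1a2 lay at the outermost end and overlapped no promoter. At Lpl, lipoprotein lipase, the midpoint lay 968 bp past the end (chr8:71426201-71437400), with SETD5-V5 of 8400 and 4200 bp at 0 h and 11200 and 24000 bp at 6 h, and endogenous SETD5 of 9200 bp at 6 h and none at 0 h. H3K27ac there was 13000 and 10400 bp in EV cells at 0 h and 14600 and 11600 bp at 48 h. In SETD5 cells it was 8600 and 9600 bp at 0 h and 7600 and 5400 bp at 48 h, so that the SETD5 libraries were below the EV libraries at both times. At Col6a1, a subunit of collagen VI, the EV islands of H3K27ac were 3200 and 3800 bp at 0 h and 43400 and 15200 bp at 48 h, whereas the SETD5 islands were 4600 and 3000 bp at 48 h. At Col1a2, a subunit of collagen I, SETD5-V5 was listed over 50800 and 43400 bp at 0 h and 11200 and 8400 bp at 6 h (chr6:4486201-4497400). H3K27ac there was 39600 and 12400 bp in EV and 9000 and 4000 bp in SETD5 cells at 0 h, and there was no island at 48 h in any of the 4 libraries. By the rule the 6 h island of A was shorter than 20000 bp, a limit that the islands of the other lists did not have. Lengths of islands depend on where a list crosses its threshold and are not levels of signal.

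Among the members with the highest scores were Gm10801, Actb, Rpl12 and Gm10925, and these were also among the 63 members found in both 0 h SETD5-V5 lists and in endogenous SETD5 at 6 h (14.9%, against 3.98% of the distal islands). Of these, Gm10925 (chr1:24618201-24623000) had an island of 5000 bp in 15 libraries and 4800 bp in the remaining one, and Gm10801 (chr2:98502001-98507600) had islands of 4200 to 7800 bp in all 16, whatever the antibody. In total 17 members (4.02%, against 1.17% of the distal islands) had an island in all 16 libraries. Without these 17, the share of members with endogenous SETD5 at 6 h was 19.5% (15.9 to 23.6%), against 5.80% of the distal islands treated likewise. At 0 h it was 6.16% (4.21 to 8.93%, 25 of 406), against 2.98%, since 17 of the 42 members with endogenous SETD5 at 0 h were those in all 16 libraries. The shares for SETD5-V5 at 0 h were 61.8% in A and 31.5% in B, against 37.5% and 15.4% of the distal islands treated likewise.

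H3K27ac appeared in both EV libraries at 48 h and in neither at 0 h over 20 members (4.73%, against 9.25% of the distal islands), and in both at 0 h and neither at 48 h over 13 (3.07%, against 7.98%). The leading members of the first kind were the ends of Hist2h2bb, Bcat1, Ak3, Fndc3b, Cnnm1 and Wasl, and those of the second kind Foxp1, Col1a2, Csf2ra, Kctd4, Aebp2 and Dusp10. The Csf2ra island, 1000 bp long, overlapped an island of 800 to 1800 bp in 14 of the 16 libraries whatever the antibody, and was without one in the 2 EV libraries of 48 h. Counted at the midpoint, these shares were 7.57% against 9.31% and 2.60% against 7.52%. Of the 20, 12 also had H3K27ac in both SETD5 libraries at 48 h and 5 in neither, where of the 1849 such distal islands 1486 had it in both and 185 in neither. At Fndc3b, a factor that promotes adipogenesis, H3K27ac was 6800 and 3800 bp at 48 h in EV and 11600 and 9200 bp in SETD5 cells, with none at 0 h with either vector. At Wasl, a regulator of actin assembly, it was 2800 and 2200 bp at 48 h in EV cells and absent from the 6 other H3K27ac libraries, while SETD5-V5 was listed at 0 h (9200 and 5600 bp) and 6 h (11600 and 7600 bp). At Foxp1, a forkhead transcription factor, it was 2200 and 1400 bp in EV cells at 0 h and absent at 48 h. Between vectors, 6 members (1.42%, against 1.41% of the distal islands) had H3K27ac in both EV libraries and neither SETD5 library at 48 h, led by Wasl, Tmem120a, Itgb8, Hoxc6, Gm11435 and Col6a3. The reverse was seen at 16 members (3.78%, against 6.98%), led by Gm17252, Hoxa3, Rab1, Prpf40b, Mogat1 and Csf2ra. At 0 h, 2 members had it in both EV and neither SETD5 library (Sox5 and Itih3), or 0.473% against 0.891% of the distal islands, and 6 the reverse, or 1.42% against 2.84% (Ak3, Cnnm1, Slc10a7, 1700001G17Rik, Rgs5 and Rprd1b). These counts rest on thresholds and were not tested.

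In the search of 600-base windows, AP-1 matches were held by 13.7% of the gene-end windows, against 16.7% of the distal and 10.1% of the promoter windows and 9.61% of windows at the ends of 21910 other protein-coding genes. Among the members without a promoter the share was 18.9% (38 of 201). C/EBP matches were held by 25.5% of the gene-end windows, against 28.2% of the distal, 20.2% of the promoter and 21.9% of the other gene-end windows, and by 30.8% of the members without a promoter. TEAD matches were held by 32.2%, against 30.7%, 25.2% and 29.0%. The CRE was found in 0 of 423 windows, against 0.421% of the distal, 2.00% of the promoter and 0.351% of the other gene-end windows. The median GC content was 45.8% at members, 42.8% at distal and 51.0% at promoter islands and 45.2% at the other gene ends. A match of letters in a window is not a bound site.

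**Figure D5:**
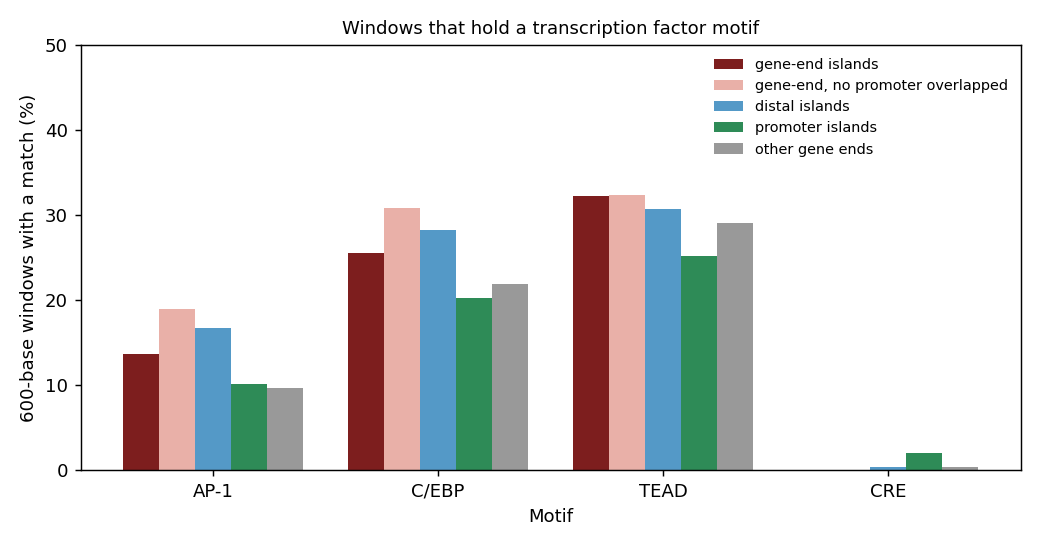
Percent of 600-base windows that held each motif (y axis), for gene-end islands, those without a promoter, distal and promoter islands, and the ends of other protein-coding genes. AP-1 and C/EBP matches at gene-end islands (13.7% and 25.5%) lay between those of distal islands (16.7% and 28.2%) and other gene ends (9.61% and 21.9%).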

How the data were processed

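Islands were called by the authors with SICER or its successor SICER2 in each library separately, without pooling replicates, after mapping to mm9 (Bowtie2 is named in the submitters' notes), and each deposited list gives chromosome, start, end and a score per island. Where the study gives island numbers by both callers, the deposited lists are as long as those of SICER2. Here the score served only for ranking and filtering inside 1 list. Groups follow the submitters' labels, and the replicate letters were not taken as pairs. The annotation was GENCODE M1 with the NCBIM37 genome, which is mm9. Islands of 2 lists counted as overlapping from 1 bp, and midpoints were compared as well. Differences over the 8 H3K27ac libraries were tested with two-sided exact permutation tests, and islands were not treated as replicates. Intervals are 95% Wilson intervals. The study calls A and B biological replicates, and p-values measure the spread between these libraries. The members, gene lists and tests were chosen with earlier results of these data known. Named members were those in a gene list (up to 12 described), the 6 with the highest score, and up to 6 of the highest score in each pattern of H3K27ac or SETD5 presence. Some members that this rule selects are not reported here. Alternatives were 50% overlap, midpoints, score and list-length thresholds, other definitions of the end, and replicates left out. Python 3.11.15, NumPy 2.4.6, SciPy 1.17.1, matplotlib 3.10.9 and samtools 1.23.1 were used, and the overlap and permutation functions were tested on simulated data.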

Additional observations from a re-analysis of the deposited data

How the results depend on the processing

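The H3K27ac share of gene-end minus distal islands (3.69 percentage points) reversed to -8.00 when 50% of the island had to be covered, -10.4 at midpoints, -12.3 among islands without a promoter and -3.18 with lengths weighted. It grew to 11.5 with islands above the median score, 7.84 at outermost ends and 5.11 with equal numbers of islands, all at p = 0.00781 in the exact permutation test. The difference between times at gene-end minus distal islands (-1.07) reversed to 4.98, 3.10 and 3.57 with 50% covered, at midpoints and with islands above the median score of their list, all at p = 0.0556 in the exact permutation test. With 1 replicate left out, the first difference was 2.94 to 4.43, where 4 libraries cannot pass 0.05 (p = 0.125, exact test). The time difference at gene-end minus distal islands was -2.02 without replicate A and -0.116 without replicate B. The letters A and B did not pair the libraries, with correlations of deviations between -0.02 and 0.08, and with a replicate block the values stayed and the exact p rose to 0.5, the smallest possible, for the difference of 3.69. The number of gene-end islands was 702 without replicate B, 493 with replicate B as the source, 234 above the median score and 308 to 468 under the other definitions. The 0 h SETD5-V5 difference of 21.5 moved to 12.2 among islands without a promoter and 13.7 with lengths weighted, and was 17.9 and 25.1 with 1 replicate left out. The endogenous SETD5 difference of 15.8 moved to 1.73 without promoters. All settings without promoters or with lengths weighted were chosen after the data were seen. The tests of vector and time at gene ends kept their direction in all alternatives run. Absence from a list is limited by depth, which is unknown per island.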
